A study of Mus musculus with 12 samples.

Results

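The RNAs described here are 4 short noncoding transcripts made by RNA polymerase III: 7SK (Rn7sk), a pair of 7SL genes (Rn7s1 and Rn7s2) and the RNA subunit of RNase P (Rpph1). They were chosen by gene name among the abundant rows of a liver RNA-seq table, after their levels in these same livers had been seen, and they are 4 of the 16378 genes tested. Their levels are therefore a description, and their place among the most abundant rows is not a result. The table gives TPM, a transcript level scaled to transcript length and to the same total in each library.

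Livers came from 12 male C57BL/6 mice of 7 weeks, 4 in each of 3 groups. Control mice received Ad-Ctrl, a mixture of the Lac and pAdV5 adenoviruses. Knockdown mice received Ad-shmGULL, which carries a short hairpin against the mouse long noncoding RNA mGULL, together with pAdV5. Rescue mice received Ad-shmGULL together with an adenovirus for human GULL (hGULL). Each group received 500000000 plaque-forming units in total, so every mouse carried adenovirus and no group was left uninfected, and livers were taken 7 days later. The methods name both an intravitreal route and the orbital venous plexus. Libraries were strand-specific and made from total RNA with a TruSeq kit. Whether transcripts with a poly(A) tail were selected is not given in the sources used here, and sequencing depth is unknown because TPM keeps no read counts. The level of mGULL itself was not analysed here. Adenovirus genomes carry their own polymerase III genes for VA RNA, and viral RNA was not analysed here.

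RNA polymerase III makes short, stable RNAs, most of which lack a poly(A) tail. 7SK is the scaffold of a nuclear particle in which HEXIM proteins hold the kinase P-TEFb (Cdk9 with a cyclin T) inactive, and release of P-TEFb lets paused RNA polymerase II elongate. 7SL is the scaffold of the signal recognition particle (SRP), which brings ribosomes that are making secreted proteins to the endoplasmic reticulum, a heavy traffic in hepatocytes because they make most plasma proteins. RNase P RNA is the catalytic subunit of the enzyme that trims the 5′ leader of precursor tRNAs. It also cuts the 3′ ends of the nuclear RNAs Malat1 and Neat1.

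The genes lie on 3 chromosomes of GRCm38.p6 in the RefSeq table. Rn7sk (ENSMUSG00000065037.1) is at chr9:78175302-78175633, 3187 bases from the kinase gene Ick. Rn7s1 (ENSMUSG00000099021.1) is at chr12:69159295-69159593, 108 bases from the ribosomal protein gene Rps29. Rn7s2 (ENSMUSG00000099250.1) lies on the same chromosome at chr12:69361183-69361481, between Nemf and Arf6. Rpph1 (ENSMUSG00000092837.1) is at chr14:50807447-50807771, 125 bases from the poly(ADP-ribose) polymerase gene Parp2. Each is a gene with no protein product, annotated as misc_RNA apart from the ribozyme Rpph1 in the mouse GENCODE transcripts of GRCm39.

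In the GENCODE transcripts of GRCm39, Rn7s1 and Rn7s2 were identical at 300 of 300 bases. On either strand of GRCm39, 0 of 251 windows of 50 bases and 0 of 201 windows of 100 bases from this sequence had a single exact match. A read that lies within 7SL therefore cannot be assigned to Rn7s1 or Rn7s2. Next to the shared sequence the genes part quickly. The 100 bases before it had 58 identical bases and the 100 bases after it had 38, and the identical run next to it was 2 bases on either side. How the authors' counting treated reads with several matches is not given in the sources used here, so the values of Rn7s1 and Rn7s2 are uncertain as levels of separate genes, and their sum is given beside them.

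For 7SK, 90 of 282 windows of 50 bases (31.9%) had a single match, and the others had up to 5, so reads of 7SK could also match copies elsewhere in the genome. Rpph1 was the clear case, with a single match for all 270 windows of 50 bases. Among 596 other short RNAs listed at a mean of at least 1 TPM, 4 shared a 31-base word with 7SL (Rn7s6, Gm26461, Gm24514 and Gm24105), and their mean levels lay between 1.07 and 10.49 TPM, far under both 7SL genes. None of the 4 passed the test described below in any comparison.

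The liver label fitted its markers. Alb was the most abundant row (56814 TPM over the 12 mice), and all 8 hepatocyte markers were among the genes tested. Summed hepatocyte markers were 106316 ± 16923 TPM (SD, n = 4) in control, 101959 ± 6883 in knockdown and 88654 ± 5842 in rescue mice.

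The library labelled knockdown replicate 1 stood apart. Over the 16378 genes tested, the first principal component held 26.8% of the variance and had control replicate 2 at its low end (-46.7, next -26.4) and knockdown replicate 2 at its high end (34.9). The second principal component held 16.4% of the variance, and knockdown replicate 1 scored -51.8 on it against a range of -8.23 to 17.6 in the other mice. That mouse was also the highest of the 12 in Rn7sk and Rpph1 and in the abundant noncoding row Gm26917 (61714 TPM against 20255 to 38319 TPM). Its summed level of 70 other short noncoding RNAs without a poly(A) tail was 3258 TPM, against 1791 to 2571 TPM in the other mice. The differences of the 4 RNAs that rest on it are given with and without it.

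In every one of the 12 mice the order of levels was Rn7sk, Rn7s2, Rn7s1 and Rpph1. Over all mice, Rn7sk ranked 2 in the table after Alb, Rn7s2 ranked 9, Rn7s1 ranked 53 and Rpph1 ranked 92. The 4 RNAs together took 6.61 ± 0.146% of all TPM in control (SD, n = 4), 5.99 ± 1.15% in knockdown and 5.74 ± 0.331% in rescue livers. The rescue mice all lay under the control mice in this share, whereas the knockdown mice ran from under to over them. Knockdown replicate 1 alone had a share of 7.66%, and without it the knockdown mean was 5.43%. The makeup of the share differed more than its size: Rn7sk made up 63.6 ± 7.69% of the 4 RNAs in control, 88.4 ± 4.51% in knockdown and 86.9 ± 2.02% in rescue livers.

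**Figure D1:**
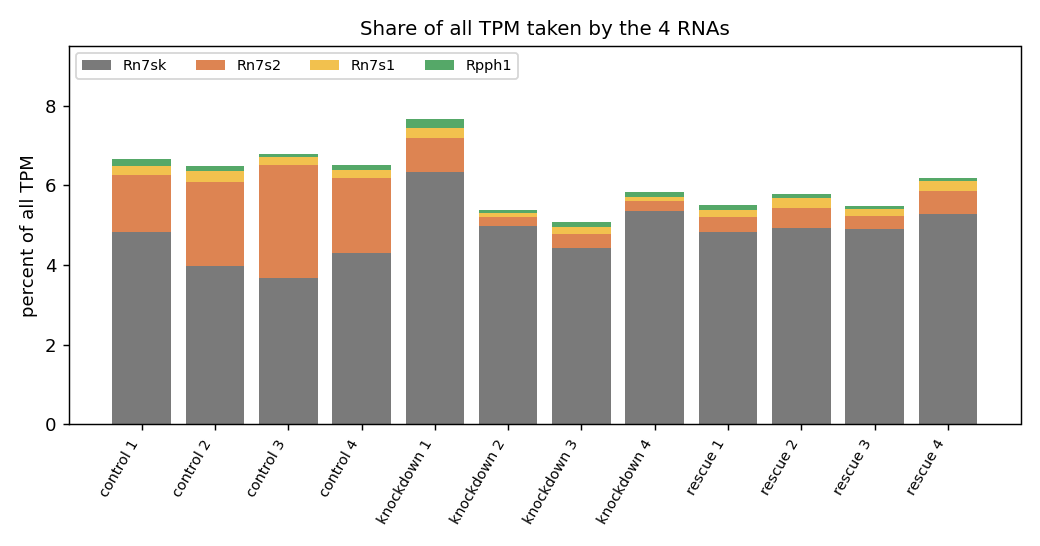
Percent of all TPM (y axis) taken by Rn7sk, Rn7s2, Rn7s1 and Rpph1 in each of the 12 livers (x axis), stacked. The total ran from 5.09 to 7.66%, and the Rn7s2 segment was wider in the 4 control livers than in any other.

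The 7SL gene Rn7s2 carried the clearest difference among the 4 RNAs. Its level was 14415, 21076, 28406 and 18849.6 TPM in the control mice. In knockdown mice it was 8569, 2320.05, 3526 and 2446 TPM. In rescue mice it was 3799, 4907, 3156 and 5859.9 TPM. Every knockdown and every rescue liver lay under every control liver, whereas knockdown and rescue livers overlapped, and knockdown replicate 1 was the highest of the 8 livers that received the hairpin. How many of all genes have groups that separate in this way was not counted, here or below.

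The comparison of knockdown with control asks what changes in liver after mGULL is reduced. Rn7s2 was 5.55-fold lower in knockdown livers on the log2(TPM + 1) scale, a difference of -2.47 (standard error 0.37) with a limma adjusted p of 0.00856 over all 16378 genes tested. Only 2 genes had a more negative difference. At an adjusted p under 0.05 the same test called 2.44% of all genes higher and 0.794% lower in knockdown. These 399 higher and 130 lower genes became 332 and 351 under median-of-ratios scaling, so the excess of higher calls and the low share of lower calls rest on the scaling. The median difference over all genes was 0.09, so Rn7s2 stood at -2.56 relative to it. Without knockdown replicate 1 the difference was -2.89 (limma adjusted p = 0.00186). In a fit of these 2 groups alone the adjusted p was 0.0507, past the threshold, against 0.00186 to 0.0335 over the other settings tried.

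Rescue livers were compared with control livers to ask how far the added human GULL left the liver different from one given control virus. Rn7s2 was 4.66-fold lower in rescue livers, a difference of -2.22 (standard error 0.37; limma adjusted p = 0.0358) and the most negative of all genes tested. The test called 2.12% of genes higher and 0.0244% lower, which were 348 and 4 genes, and 10 and 1 under median-of-ratios scaling. The median over all genes was 0.17, and median-of-ratios scaling moved it to -0.01. Under that scaling the difference of Rn7s2 was -2.43, with an adjusted p of 0.0887. The call was also lost with no filter on low values (0.0734) and in 7 of the 12 fits that left out 1 mouse: without control replicate 2 (0.109), 3 (0.0913) or 4 (0.0749) and without rescue replicate 1 (0.141), 2 (0.127), 3 (0.0658) or 4 (0.0629). Without knockdown replicate 1, which enters through the shared spread, it was 0.00631.

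The rescue minus knockdown comparison asks which differences the human RNA turned back. Rn7s2 differed by 0.25 (95% interval -0.56 to 1.06; limma adjusted p = 0.813), within the spread between mice. It depended on single mice, at 0.67 without knockdown replicate 1 (adjusted p = 0.677) and as low as 0.04 without knockdown replicate 2 (adjusted p = 0.965). Here limma called 0% of genes higher and 0% lower, with 1757 genes at an unadjusted p under 0.05. Knockdown and rescue livers were compared with the same 4 control livers, so the differences of -2.47 and -2.22 share those mice and are not independent of each other.

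**Figure D2:**
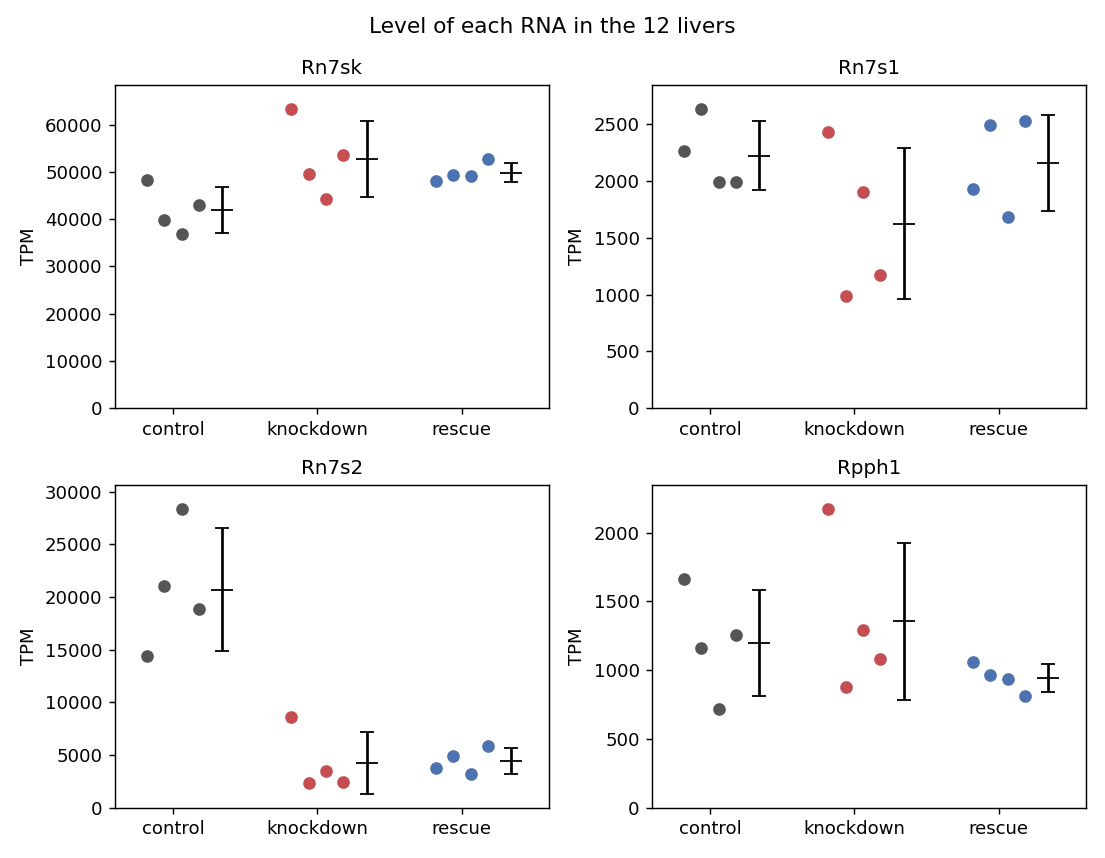
Level in TPM (y axis) of Rn7sk, Rn7s1, Rn7s2 and Rpph1 in 4 livers of each group (points), with the mean and SD beside them. For Rn7s2 the 4 control livers lie at 14415 TPM or above and the other 8 at 8569 TPM or under; for the other RNAs the knockdown and control livers overlap.

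The second 7SL gene, Rn7s1, was less abundant and differed less. Its level was 2269.9, 2637, 1994 and 1993 TPM in control, 2429.95, 988, 1904 and 1174 TPM in knockdown, and 1931, 2496, 1681 and 2528 TPM in rescue livers. The groups overlapped, and within knockdown the values formed a higher and a lower pair. Rn7s1 differed by -0.54 in knockdown minus control (standard error 0.25; limma adjusted p = 0.257), by 0.48 in rescue minus knockdown (adjusted p = 0.513) and by -0.05 in rescue minus control (adjusted p = 0.908). None of these passed the test. The difference in rescue minus control turned to 0.03 without control replicate 2 and to 0.06 without rescue replicate 3. Under median-of-ratios scaling it was -0.26. Without knockdown replicate 1 the difference between knockdown and control was -0.76 (adjusted p = 0.0853), and that between rescue and knockdown was 0.71 (adjusted p = 0.545). Without knockdown replicate 2 they shrank to -0.33 (adjusted p = 0.510) and 0.28 (adjusted p = 0.517).

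Since the 7SL genes share their sequence, their ratio within each liver shows how the table split 7SL, and it does not depend on how libraries were scaled. Rn7s2 over Rn7s1 was 6.35, 7.99, 14.2 and 9.46 in control livers. It was 3.53, 2.35, 1.85 and 2.08 in knockdown and 1.97, 1.97, 1.88 and 2.32 in rescue livers. All 8 livers with the hairpin lay under all control livers, and the rescue livers kept close to each other at 2.03 ± 0.195 (SD, n = 4). In control livers Rn7s2 therefore held 89.8 ± 2.95% of the 7SL sum, against 70.1 ± 5.60% in knockdown and 66.9 ± 2.02% in rescue livers. The ratio is given as a description, with no test, because it was chosen after the values were seen. Whether it reflects transcription, the sequence next to each gene or the assignment of shared reads was not tested.

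The summed 7SL level was 22910 ± 5767 TPM in control (SD, n = 4), 5839 ± 3565 TPM in knockdown and 6589.6 ± 1603 TPM in rescue livers. Dividing shared reads between Rn7s1 and Rn7s2 leaves the sum as it is. But 0 of 251 windows of 50 bases had a single match in the genome, and windows had up to 6. The sum can therefore depend on whether reads with several matches were dropped, counted once or counted at each match, which is not given. From means of log2 values it was 4.33-fold lower in knockdown than in control and 3.47-fold lower in rescue, and in both cases the groups did not overlap. Without knockdown replicate 1 the knockdown mean was 4119 ± 1145 TPM (SD, n = 3). No p is given for the sum.

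**Figure D3:**
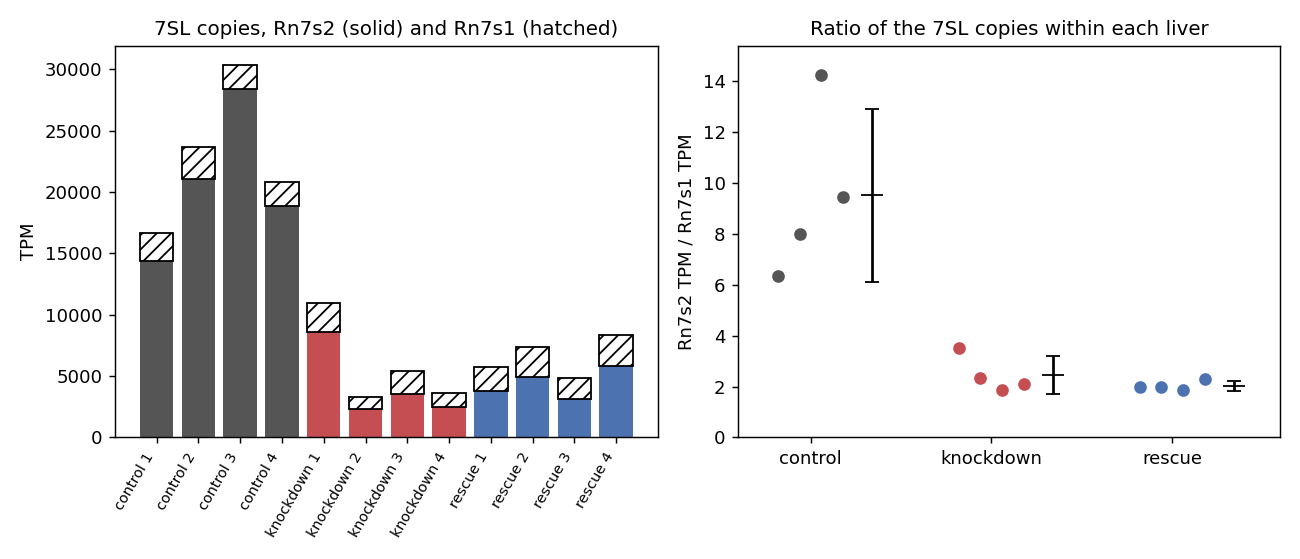
Left, TPM (y axis) of Rn7s2 (solid) and Rn7s1 (hatched) stacked for each of the 12 livers (x axis). Right, the ratio of Rn7s2 to Rn7s1 (y axis) in each liver (points) by group, with mean and SD; control livers lie between 6.35 and 14.2 and the others between 1.85 and 3.53.

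7SK moved little beside this. Rn7sk was 48308, 39896, 36805 and 43015 TPM in control, 63407, 49696, 44199 and 53541 TPM in knockdown, and 48193, 49411, 49133 and 52753 TPM in rescue livers. Control replicate 1 overlapped both other groups, and the rescue livers were the closest to each other, with a coefficient of variation of 3.99% against 11.7% in control. The difference was 0.32 in knockdown minus control, 0.25 in rescue minus control and -0.07 in rescue minus knockdown, each with a standard error of 0.21. These are described with no p. Relative to the median of all genes they were 0.24, 0.08 and -0.16. Without knockdown replicate 1 the knockdown mean was 49146 ± 4695 TPM (SD, n = 3) against 52711 ± 8096 TPM with it (n = 4). The difference of Rn7sk was then 0.23 in knockdown minus control and 0.02 in rescue minus knockdown, the latter with its sign turned.

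RNase P RNA, Rpph1, was 1659, 1158, 714 and 1254 TPM in control, 2174, 875, 1289.7 and 1084 TPM in knockdown, and 1058, 965, 938 and 814 TPM in rescue livers. All 3 groups overlapped, and the knockdown mean rested on replicate 1: it was 1356 ± 571 TPM with it (SD, n = 4) and 1083 ± 208 TPM without it (n = 3). The difference in knockdown minus control was 0.16 (standard error 0.28; limma adjusted p = 0.802) and turned to -0.10 without that mouse and to -0.07 without control replicate 3. Under median-of-ratios scaling it was 0.05. In rescue minus knockdown it was -0.44 (adjusted p = 0.568) and in rescue minus control -0.29 (adjusted p = 0.526). The former was -0.19 without knockdown replicate 1, and the latter ran from -0.51 to -0.11 (without control replicate 1) as each mouse was left out and was -0.49 under median-of-ratios scaling. None of the 3 differences passed the test.

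**Figure D4:**
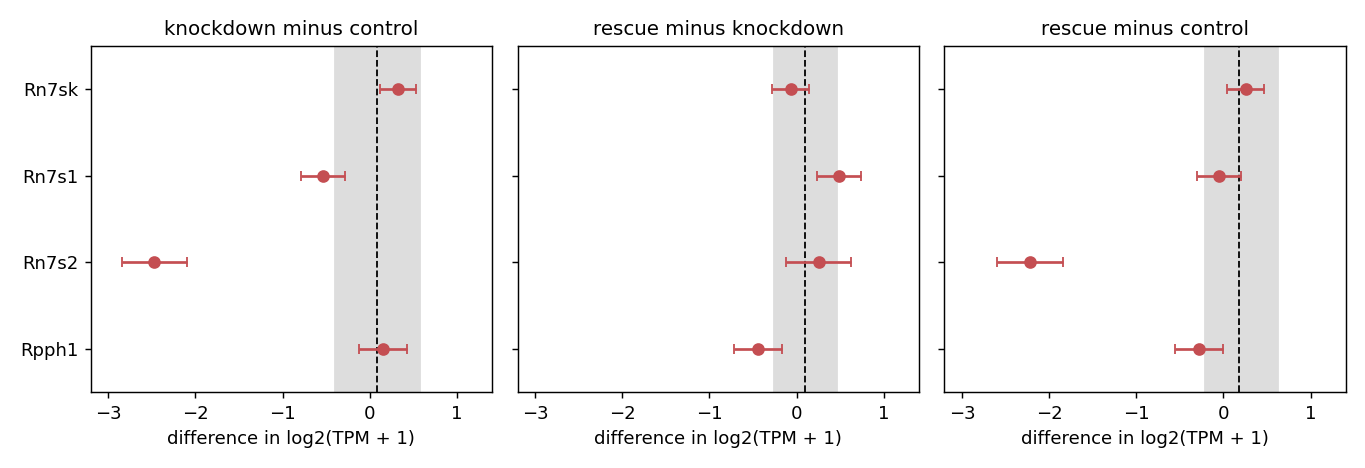
Difference in log2(TPM + 1) (x axis) of the 4 RNAs in each comparison, with its standard error. The grey band spans the 5th to 95th percentile of all 16378 genes tested and the dashed line is their median; Rn7s2 lies farthest outside the band (-2.47 and -2.22); Rn7s1 lies just outside it in knockdown minus control and rescue minus knockdown, and Rpph1 in rescue minus knockdown and rescue minus control.

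Of the neighbouring genes tested, 0 passed in any comparison, near the shares over all genes (2.44% higher and 0.794% lower in knockdown minus control). Lrr1, on the other side of Rn7s1, and Ccnb1ip1, on the other side of Rpph1, had means under 1 TPM and were not tested. Nemf, which lies 3981 bases from Rn7s2, was 12.9 ± 0.828 TPM in control (SD, n = 4), 12.1 ± 2.35 TPM in knockdown and 13.6 ± 0.911 TPM in rescue livers, with limma adjusted p = 0.694 in knockdown minus control. On the other side Arf6, a small GTPase of membrane traffic, was 117 ± 17.1, 153 ± 32.6 and 132 ± 6.72 TPM (adjusted p = 0.144). Rps29 beside Rn7s1 was 181 ± 8.18, 178 ± 40.6 and 227 ± 16.7 TPM (adjusted p = 0.862). Parp2 beside Rpph1 was 6.86 ± 1.30, 7.71 ± 1.404 and 9.20 ± 1.22 TPM (adjusted p = 0.620). On the sides of Rn7sk, Ick was 5.43 ± 0.328, 5.45 ± 0.903 and 6.53 ± 0.437 TPM (adjusted p = 0.987). Gsta4 had the largest differences from control of these neighbours, at 179 ± 70.8, 234 ± 59.02 and 261 ± 2.36 TPM, or 0.43 in knockdown minus control (adjusted p = 0.339) and 0.62 in rescue minus control (adjusted p = 0.140).

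Proteins that work with the 4 RNAs were read from lists. Over 8 lists of partner and polymerase proteins, 90 genes were tested; 1 was called higher and 2 lower in knockdown minus control, and 0 were called in rescue minus knockdown or rescue minus control. Among all genes tested knockdown minus control called 2.44% higher and 0.794% lower. Rescue minus control called 2.12% higher and 0.0244% lower, and rescue minus knockdown called 0%. A list of at most 21 genes with 0 called lies near those shares, here and in the paragraphs below.

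For the 7SK particle, 0 of 7 genes passed the test in any comparison. With a mouse left out, 1 was called in knockdown minus control without knockdown replicate 3, and 1 in rescue minus control without control replicate 1 or knockdown replicate 3. The list holds the capping enzyme Mepce, the 3′ end binder Larp7, Hexim1 and Hexim2, and P-TEFb itself (Cdk9, Ccnt1 and Ccnt2). Mepce was the most abundant at 25.3 ± 1.39 TPM in control (SD, n = 4), 30.8 ± 4.92 TPM in knockdown and 29.0 ± 1.15 TPM in rescue livers, a difference of 0.27 in knockdown minus control (limma adjusted p = 0.147). Median differences of the list were 0.24 in knockdown minus control and 0.22 in rescue minus control, against 0.09 and 0.17 over all genes. Summed levels of the 7 genes were 117 ± 6.62, 134 ± 13.6 and 139.6 ± 4.12 TPM, far under the level of Rn7sk itself.

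Among 6 RNA-binding proteins that share 7SK with P-TEFb, Ddx21 fell in knockdown livers. This RNA helicase works in ribosome production and is also known to act on 7SK at transcribed genes. Ddx21 was 43.0, 38.1, 34.2 and 37.9 TPM in control, 24.2, 28.4, 28.6 and 20.4 TPM in knockdown, and 29.8, 30.0, 31.2 and 33.4 TPM in rescue livers. All knockdown livers lay under all rescue livers, and all rescue livers lay under all control livers. The share of all genes with such an order was not counted. The difference was -0.58 in knockdown minus control (standard error 0.11; limma adjusted p = 0.0179), 0.29 in rescue minus knockdown (adjusted p = 0.404) and -0.29 in rescue minus control (adjusted p = 0.136), so that only the knockdown difference passed. Its adjusted p was 0.0822 in a fit of the 2 groups alone and under 0.05 under every other setting tried. Srsf2, the most abundant of the list, was 121 ± 12.9 TPM in control and 131 ± 13.2 TPM in knockdown livers (adjusted p = 0.600).

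Of 14 elongation partners of P-TEFb, 0 passed the test in any comparison. Under median-of-ratios scaling 1 was called lower in knockdown minus control, Supt5 (adjusted p = 0.0323), named after its value was seen, and 1 gene was called without control replicate 1. In rescue minus control 1 gene was called without knockdown replicate 1 or 2. Supt4a, a subunit of the elongation factor DSIF, was the most abundant at 49.7 ± 7.60 TPM in control, 53.9 ± 5.18 TPM in knockdown and 52.8 ± 1.98 TPM in rescue livers (SD, n = 4). The list median was 0.09 in knockdown minus control and 0.17 in rescue minus control, the same to 2 decimals as the medians of all genes. Among 14 immediate early genes, which depend on the release of paused polymerase, 0 were called, and the median was -0.02 in knockdown minus control. Without control replicate 1, 1 of them was called in rescue minus control. Mcl1 was the most abundant of these, at 124 ± 24.0 TPM in control and 133 ± 6.23 TPM in knockdown livers.

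The proteins that bind 7SL in the SRP were read beside Rn7s2, and a difference between them and Rn7s2 was not tested. Of 6 SRP protein genes tested, 0 passed in any comparison. Among all genes, 2.44% were called higher and 0.794% lower in knockdown minus control, so 0 of 6 lies near those shares. The list median was -0.04 in knockdown minus control and 0.10 in rescue minus control. Srp72 was the most abundant at 53.8 ± 6.54 TPM in control, 56.3 ± 13.96 TPM in knockdown and 63.7 ± 3.18 TPM in rescue livers (SD, n = 4). Summed SRP proteins were 197 ± 10.6, 189 ± 19.5 and 211 ± 2.06 TPM, while summed 7SL was 4.33-fold lower in knockdown than in control from means of log2 values. The list's sum in knockdown replicate 1 was 161 TPM, the lowest of the 12 livers.

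Of 13 genes for the SRP receptor and the translocon, 1 rose and 1 fell in knockdown, both subunits of the translocon-associated TRAP complex. Ssr2 was 127.6, 102, 97.3 and 116 TPM in control and 153, 164, 128.5 and 145 TPM in knockdown livers, a difference of 0.41 (standard error 0.10; limma adjusted p = 0.0449). Ssr4 went the other way, at 53.3, 57.9, 59.7 and 55.03 TPM in control and 45.9, 47.1, 46.8 and 45.2 TPM in knockdown livers, a difference of -0.28 (standard error 0.07; adjusted p = 0.0448). Neither group pair overlapped, though for Ssr2 the highest control liver was at 127.6 TPM and the lowest knockdown liver at 128.5 TPM. The share of all genes whose groups do not overlap was not counted. In this comparison 20.2% of all genes had an unadjusted limma p under 0.05. Both calls sat close to the threshold. In the 12 fits that left out 1 mouse, each was kept in 2 and the highest adjusted p was 0.128, and without knockdown replicate 1 they were 0.0741 and 0.0623. In rescue minus control 1 gene of the list was called without control replicate 1. In the 8 other settings Ssr2 passed in 3 and Ssr4 in 4, with adjusted p up to 0.151 for both. Under median-of-ratios scaling Ssr2 no longer passed (0.0579), Ssr4 did (0.0361) and Sec61g, named after its value was seen, was called lower (0.0432). Ssr3 was the most abundant of the list, at 169 ± 22.1 TPM in control and 189.9 ± 38.4 TPM in knockdown livers (adjusted p = 0.582).

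RNase P shares most of its proteins with RNase MRP, and 0 of 10 such genes passed in any comparison. The most abundant was Rpp25l, at 36.1 ± 7.15 TPM in control, 39.8 ± 12.3 TPM in knockdown and 32.8 ± 2.24 TPM in rescue livers (SD, n = 4). Rmrp, the RNA of RNase MRP, is listed at 0 in every mouse under both of its features, as are all 37 mitochondrial features, so a value of 0 in this table is not read as absence. Malat1, whose 3′ end RNase P makes, was 2907 ± 228, 2745 ± 525 and 2939.8 ± 176 TPM, and neither it nor Neat1 passed the test.

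**Figure D5:**
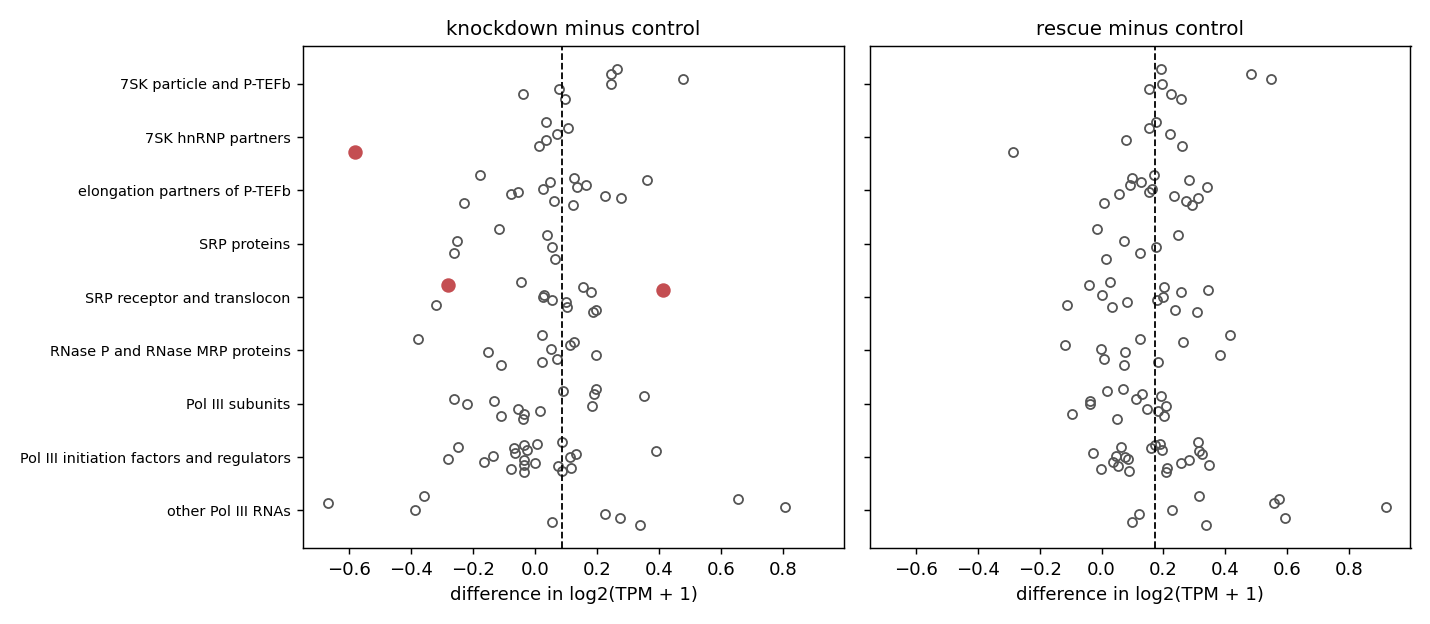
Difference in log2(TPM + 1) (x axis) of each gene in 9 lists (rows), for knockdown minus control (left) and rescue minus control (right). Filled points passed the limma test at an adjusted p under 0.05 (Ddx21, Ssr4 and Ssr2, left), open points did not, and the dashed line is the median of all genes tested (0.09 and 0.17).

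Genes for the enzyme that makes these RNAs gave no calls. Of 13 polymerase III subunits and 21 initiation factors and regulators, 0 passed in any comparison. Knockdown minus control called 2.44% of all genes higher and 0.794% lower, so these counts lie near the shares over all genes. The list medians in knockdown minus control were -0.04 and -0.03, against 0.09 over all genes. Crcp was the most abundant subunit, at 42.9 ± 2.50 TPM in control and 41.9 ± 5.26 TPM in knockdown livers (SD, n = 4). Ssb, the La protein that holds the 3′ ends of new polymerase III transcripts, was 58.7 ± 5.12 TPM in control, 58.6 ± 14.8 TPM in knockdown and 66.4 ± 5.64 TPM in rescue livers, with 40.9 TPM in knockdown replicate 1. Summed initiation factors and regulators were 298 to 331 TPM in control, 292 to 354 TPM in knockdown and 344 to 366 TPM in rescue livers. Rescue thus lay above control, where 19 of the 21 differences were positive and the list median was 0.17, the same to 2 decimals as the median of all genes.

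Of 188 features of other polymerase III RNAs, 9 were abundant enough to test and 0 were called. This lies near the shares over all genes (2.44% higher and 0.794% lower in knockdown minus control). Only 28 of 181 features of 5S ribosomal RNA were above 0, and a value of 0 in this table is not read as absence. Vaultrc5, the vault RNA, was the most abundant at 51.8 ± 22.0 TPM in control, 59.8 ± 21.3 TPM in knockdown and 52.8 ± 4.004 TPM in rescue livers (SD, n = 4). Y RNA genes Rny3 and Rny1 had means of 10.4 and 4.49 TPM over the 12 mice, far under every level of Rn7s2. Their 9 summed levels were 98.4 ± 25.7, 107 ± 17.9 and 111 ± 13.7 TPM, with no fall of the kind seen for Rn7s2.

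Short RNAs made by RNA polymerase II or from introns, which also lack a poly(A) tail, gave a further comparison. Of 70 small nucleolar, Cajal body and spliceosomal RNAs tested, 1 was called lower in knockdown minus control, beside 0.794% of all genes, and 0 in the other comparisons. With a mouse left out the count ran from 0 to 2, and in rescue minus control 1 was called without control replicate 1. Snora31, which guides pseudouridylation of ribosomal RNA, was 27.7, 17.9, 15.02 and 19.2 TPM in control, 9.33, 14.2, 8.26 and 9.15 TPM in knockdown, and 22.2, 21.1, 18.3 and 18.3 TPM in rescue livers. The knockdown livers lay under the other 8, a separation whose share over all genes was not counted. Its difference was -0.89 (standard error 0.18; limma adjusted p = 0.0241) in knockdown minus control and 0.92 in rescue minus knockdown (adjusted p = 0.282). The call was lost without control replicate 2 (0.0554), control replicate 4 (0.0571) or knockdown replicate 4 (0.0552), and in 2 of 8 other settings, up to 0.0928. Snora73b, the most abundant of the list, was 523 ± 73.5 TPM in control, 545 ± 265 TPM in knockdown and 437 ± 30.1 TPM in rescue livers. Summed, the 70 RNAs were 2198 ± 292, 2242 ± 685 and 2047 ± 39.5 TPM. The knockdown mean rested on replicate 1 (3258 TPM), and the other knockdown livers ran from 1791 to 2044 TPM against 1856 to 2571 TPM in control. Of 4 replication-dependent histone genes, whose messages lack a poly(A) tail, 0 were called, and the most abundant, Hist1h4m, was 35.4 ± 9.03, 34.1 ± 4.53 and 49.5 ± 10.99 TPM.

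Which genes followed 7SK across the livers was asked over all tested genes. On log2(TPM + 1), the 5 with the highest Pearson r with Rn7sk over 12 mice were Ndufs7 (0.96), Dus1l (0.96), Ndufv1 (0.95), Lonp1 (0.95) and Mtfp1 (0.95). Ndufs7 and Ndufv1 are subunits of mitochondrial complex I, and Lonp1 is a mitochondrial protease. After group means were taken away r was between 0.89 and 0.94, and without knockdown replicate 1 it was between 0.91 and 0.94 over 11 mice. Spearman correlations over the 12 mice were lower, from 0.74 (Ndufv1) to 0.89 (Ndufs7). These are the highest of 16378 values and share the 12 libraries and their scaling, so they describe these livers. They carry no p. With the noncoding row Gm26917, looked at after the values were seen, Rn7sk had an r of 0.55 (Spearman 0.09), and 0.09 without knockdown replicate 1.

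For Rpph1 the 3 highest were Rpp25l (0.95), Mrfap1 (0.94) and Mrpl52 (0.94), and from deviations around group means 0.95, 0.95 and 0.93. Rpp25l is also on the list of RNase P proteins, being related to the RNase P subunit Rpp25. Without knockdown replicate 1 these r were 0.92, 0.90 and 0.90. Rpph1 followed the summed short noncoding RNAs too (r = 0.90, Spearman 0.82, 12 mice; 0.81 over 11 mice without knockdown replicate 1), and Gm26917 (r = 0.91; 0.84 without that mouse), both looked at after the values were seen. Among the 4 RNAs themselves, r was 0.61 between Rn7s1 and Rn7s2, 0.46 between Rn7sk and Rpph1, and -0.55 between Rn7sk and Rn7s2. Within groups these were 0.79, 0.71 and 0.27, so the negative value of Rn7sk and Rn7s2 lay between groups.

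Markers of other liver cells were read in the same livers, because in bulk tissue fewer cells of a type and less RNA per cell cannot be told apart. Of 6 sinusoidal endothelial cell markers, 1 was called higher in knockdown, Stab2, a scavenger receptor and the most abundant of the list, at 34.9 ± 6.72 TPM in control, 50.9 ± 7.31 TPM in knockdown and 45.7 ± 2.10 TPM in rescue livers (0.54 in knockdown minus control, limma adjusted p = 0.0476). Among all genes tested 2.44% were called higher. The Stab2 call was kept in 2 of the 12 fits that left out 1 mouse and in 4 of 8 other settings (adjusted p up to 0.155), and without knockdown replicate 1 it was 0.0662. The summed list was 182, 104, 131 and 167 TPM in control, 179, 228, 175 and 196 TPM in knockdown, and 166, 179.8, 171 and 202 TPM in rescue livers. The 2 control mice of highest Rn7s2, replicates 2 and 3, were the lowest control mice in these markers. They were also the lowest control mice in summed Kupffer, stellate, bile duct and T and B cell markers, so this was not particular to endothelial cells. In red blood cell markers control replicate 3 was the highest control mouse. This order was looked at after the values were seen, and the part of any cell type in the difference of Rn7s2 was not tested.

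Of the remaining markers, 0 of 8 hepatocyte, 0 of 7 Kupffer cell, 0 of 6 stellate cell, 0 of 4 bile duct cell, 0 of 6 T and B cell and 0 of 5 red blood cell genes passed in any comparison. These counts lie near the shares over all genes (2.44% higher and 0.794% lower in knockdown minus control). They do not show an unchanged makeup of cells. In rescue minus control 7 hepatocyte markers were negative and 1 positive, with a median of -0.23 against 0.17 over all genes. Summed Kupffer cell markers, led by Cd5l, were 629 ± 154 TPM in control, 594 ± 126 TPM in knockdown and 597 ± 66.6 TPM in rescue livers (SD, n = 4). Stellate cell markers, led by Dcn, summed to 122 ± 40.9, 147 ± 18.5 and 135 ± 11.2 TPM, and bile duct cell markers, led by Spp1, to 83.1 ± 17.5, 92.0 ± 37.6 and 104 ± 15.02 TPM. T and B cell markers, led by Ighm, summed to 26.0 ± 12.3, 42.9 ± 14.8 and 31.9 ± 5.48 TPM, and red blood cell markers, led by Hbb-bs, to 509 ± 207, 553 ± 108 and 500.5 ± 119.7 TPM. The part of these cells in the levels of the 4 RNAs was not tested.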

How the data were processed

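Total RNA of 12 livers (4 per group, groups taken from sample titles) was sequenced by the authors, who deposited 1 table of TPM values per gene. Per the labels and methods, reads were trimmed with fastp 0.23.2, checked with FastQC 0.11.8, aligned with HISAT2 2.2.1.0 to GRCm38.p6 and counted with featureCounts of Subread 2.0. The conversion to TPM, the counting options for shared reads and strand, and sequencing depth are not given in the sources used here, so no counting interval is given.

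TPM values were analysed as log2(TPM + 1) for 16378 of 55385 features, those whose mean over the mice reached 1 TPM. Differences are on that scale and understate changes of low genes. One limma 3.58.1 model (R 4.3.3) held the 3 groups, with no covariate and with moderated variances that follow a trend on the mean level; p-values were Benjamini-Hochberg adjusted over all genes tested and called under 0.05. The code was tested on simulated data. Named genes were the 4 RNAs, in each list the genes called (at most 6) and the most abundant gene, and the genes most correlated with Rn7sk (5) and Rpph1 (3); other names were chosen after their values were seen. Members and lists were chosen with earlier results of these data known, so adjusted p-values for the 4 RNAs are no independent support. Alternatives were a pseudocount of 0.1, no filter, a minimum mean of 5 TPM, median-of-ratios scaling, rescaling without the 4 RNAs, fits of 2 groups, array weights, a replicate block and leaving out each mouse. Sequence windows were matched exactly to both strands of GRCm39, and gene positions come from the RefSeq table of GRCm38.p6, where all 4 RNAs were matched by symbol. Python 3.11.15 with pandas 2.3.3 and matplotlib 3.10.9 was used for the rest.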

Additional observations from a re-analysis of the deposited data

Results flagged for a closer look

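In 4 of 174 groups of 4 mice examined, 1 mouse lay far from the other 3; chance gives about 1 in 20, so these are no more than chance gives. Mepce was 38.2 TPM in knockdown replicate 1 against 27.7 to 28.9 TPM in the other knockdown livers. Summed polymerase III subunits were 198 TPM in the same liver, against 204 to 205 TPM. Mtfp1 was 38.6 TPM in control replicate 1, against 24.4 to 26.8 TPM. Mcl1 was 126 TPM in rescue replicate 4, against 137 to 139 TPM. None of the 4 RNAs had such a mouse in any group.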

How the results depend on the processing

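The fall of Rn7s2 in knockdown kept its call under all 20 alternatives but the fit of 2 groups alone (-2.47, adjusted p = 0.0507). Leaving out each control or knockdown mouse gave -2.89 to -2.26. The smaller pseudocount, the rescalings and array weights gave -2.76 to -2.47. With no filter, a minimum mean of 5 TPM, the fit of 2 groups, the replicate block or a rescue mouse left out, the difference could not move from -2.47. Its direction there is no test. In rescue minus control the difference of Rn7s2 ran from -2.38 to -2.05 with a control or rescue mouse left out. The same settings, with a knockdown mouse left out in place of a rescue mouse, could not move it from -2.22. It lost its call with no filter, median-of-ratios scaling (-2.43) and the replicate block (adjusted p = 0.0540). The call was also lost without any rescue mouse or control replicate 2, 3 or 4 (adjusted p up to 0.141). Rpph1 in knockdown minus control ran from -0.10 to 0.34 with a mouse left out and changed sign without control replicate 3 (-0.07) or knockdown replicate 1 (-0.10). Rn7s1 in rescue minus control ran from -0.14 to 0.06 with a mouse left out and changed sign without control replicate 2 (0.03) or rescue replicate 3 (0.0596). Over the other settings it ran from -0.26 under median-of-ratios scaling to a changed sign with array weights (0.000584). Under median-of-ratios scaling Rpph1 was 0.05 in knockdown minus control and -0.49 in rescue minus control.

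In rescue minus knockdown, leaving out each mouse gave 0.04 to 0.67 for Rn7s2, 0.28 to 0.71 for Rn7s1, -0.62 to -0.19 for Rpph1 and -0.15 to 0.02 for Rn7sk. None of these passed for the first 3, and Rn7sk was given no p. Rn7sk in rescue minus control was 0.25, and 0.0492 under median-of-ratios scaling. Genes called in knockdown minus control (529) became 236 with no filter, 33 in the fit of 2 groups and 418 with the replicate block. They ranged from 165 without control replicate 3 to 1057 without knockdown replicate 3, and leaving out any mouse but knockdown replicate 1 (402) moved them over 1.5 times. Of the genes called, 75.4% were higher, and 48.6% under median-of-ratios scaling. In rescue minus control (352) the counts were 9 with no filter, 568 at a minimum mean of 5 TPM, 11 under median-of-ratios scaling, 1693 in the fit of 2 groups, 3184 with array weights and 71 with the replicate block. They ranged from 3 without control replicate 3 or 4 to 1068 without control replicate 1, all over 1.5 times away. In rescue minus knockdown (0) they ranged from 0 to 2 with a mouse left out, and 0 were called otherwise. The summed share of the 4 RNAs under median-of-ratios scaling was 7.12% in control and 5.36% in rescue livers. Fewer samples or more genes tested accompany some of these; otherwise the cause was not tested.

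Same-numbered mice did not deviate together (correlations from -0.24 to 0.15 over the 3 comparisons), so the replicate numbers do not pair them. With 4 mice a group and unknown depth, differences within the spread of Rn7s1, Rn7sk or Rpph1 could not be resolved.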

Other observations

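Rn7s6, Gm26461, Gm24514 and Gm24105, the listed rows that share 31-base words with 7SL, shared 143, 79, 42 and 38 such words with it. Rn7s6 was 9.17 ± 3.19 TPM in control (SD, n = 4), 11.9 ± 1.399 TPM in knockdown and 10.4 ± 1.39 TPM in rescue livers (0.39 in knockdown minus control, limma adjusted p = 0.278). Gm24105 was 10.9 ± 4.02, 7.67 ± 5.44 and 9.92 ± 1.81 TPM (-0.62 in knockdown minus control, adjusted p = 0.400). The other abundant noncoding rows Gm42418 and Gm23935 peaked in control replicate 4 (24749 TPM) and knockdown replicate 1 (21891 TPM), and Lars2 in control replicate 4 was 179.7 TPM against 10.7 to 34.4 TPM in the other mice, while Rn7s2 in that mouse lay within the control range.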
